A study of Homo sapiens with 6 samples.

Results

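BRACHYURY (BRA) peaks were examined at 6 genes in 3 windows of the genome. The first window held KLF7 and its upstream side (chr2:207889001-208350000, 461 kb). The second held AUTS2 (chr7:69014001-70308000, 1294 kb). The third held the neighbours SOX13, PLEKHA6, MDM4 and NFASC (chr1:204000001-205000000, 1000 kb). Positions are in hg19, the build given in the submitters' processing notes, and are counted from 1. A peak was a member if its midpoint lay in a window, which gave 137 of the 54994 peaks in the 4 deposited lists. Of these, 23 lay in the KLF7 window, 44 in the AUTS2 window and 70 in the SOX13 to NFASC window. The 3 loci were selected on measured values: among 1 Mb windows they ranked highest for the excess of R&D Systems peaks called in FLyA only over those called in FLyB only, at 25 against 5 for KLF7, 23 against 5 for AUTS2 and 27 against 12 for SOX13 to NFASC. The third place was tied, since 4 other windows also had an excess of 15, and the next window, on chromosome 17, had an excess of 14. Counts of R&D Systems peaks by medium are therefore given as a description, and the Santa Cruz peaks, which the choice did not use, are the separate readout.

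The cells were H9, which is an established line of human embryonic stem cells. All cultures were treated for 36 h, with FGF2 at 20 ng/ml and the PI3K inhibitor LY294002 at 10 μM, and received activin A at 100 ng/ml in FLyA medium, which drives endoderm, or BMP4 at 10 ng/ml in FLyB medium, which drives mesoderm. BRA-bound chromatin was sequenced in 1 library per medium with an R&D Systems antibody and 1 per medium with a Santa Cruz antibody, so each medium had 2 libraries with different antibodies and none was repeated with the same antibody. No test between media was run and no p-value was computed. The lists held 25864 R&D Systems FLyA peaks, 23687 R&D Systems FLyB peaks, 2436 Santa Cruz FLyA peaks and 3007 Santa Cruz FLyB peaks. Every peak was 400 bp wide and carried no height or read count. The study describes its Santa Cruz libraries as noisier and with fewer unique reads. The lists themselves give no read depth, and a site called in 1 medium may still be bound in the other. Shares are given with exact (Clopper-Pearson) 95% intervals. These take peaks as independent of each other and reflect counting error alone.

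BRA is a T-box transcription factor of the primitive streak. Activin and NODAL act through SMAD2 and SMAD3, and BMP4 acts through SMAD1, and BRA is made under both signals. KLF7 is a Krüppel-like zinc-finger factor known from neuronal development. AUTS2 is a neurodevelopmental gene whose product works with a Polycomb complex. SOX13 is a SoxD transcription factor, PLEKHA6 is a protein of cell junctions, MDM4 is an inhibitor of p53, and NFASC is a cell adhesion protein of axons. Further genes lie between SOX13 and NFASC and were not analysed here. No annotation of hg19 was used, so no peak was placed in an exon, an intron or a promoter.

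T-box factors bind a site written TCACACCT, or AGGTGTGA on the other strand. RefSeq (GRCh38.p14) promoters, 250 bases before to 50 after each start site, were found for 6 of the 6 genes, 10 promoters in all. The whole site was in 0 of the 10 and in 0.980% of 35116 promoters. Its core, TCACAC or GTGTGA, was in 2 of the 10 and in 12.0% of all promoters. These 2 sequences are shown because they hold the only core matches among the members' promoters, with the core in capitals; the first is on the minus strand (chr2:207165899-207166198) and the second on the plus strand (chr1:204516156-204516455).
KLF7 promoter: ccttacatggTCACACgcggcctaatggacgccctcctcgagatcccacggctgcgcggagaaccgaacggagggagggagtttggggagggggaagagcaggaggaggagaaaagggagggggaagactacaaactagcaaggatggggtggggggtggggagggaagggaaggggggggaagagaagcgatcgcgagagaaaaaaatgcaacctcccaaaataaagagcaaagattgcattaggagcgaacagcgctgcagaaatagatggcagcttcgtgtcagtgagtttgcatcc
MDM4 promoter: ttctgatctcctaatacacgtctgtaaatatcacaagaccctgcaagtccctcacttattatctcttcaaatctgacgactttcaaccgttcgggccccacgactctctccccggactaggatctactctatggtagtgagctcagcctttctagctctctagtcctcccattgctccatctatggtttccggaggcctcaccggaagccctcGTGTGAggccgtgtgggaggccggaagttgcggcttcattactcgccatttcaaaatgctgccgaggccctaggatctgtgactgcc
Counted from the start site, the core began at -240 in KLF7 and at -37 in MDM4. A match is a stretch of letters and not a measured site. As this build is not that of the peaks, whether a peak covers either promoter was not determined.

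**Figure D1:**
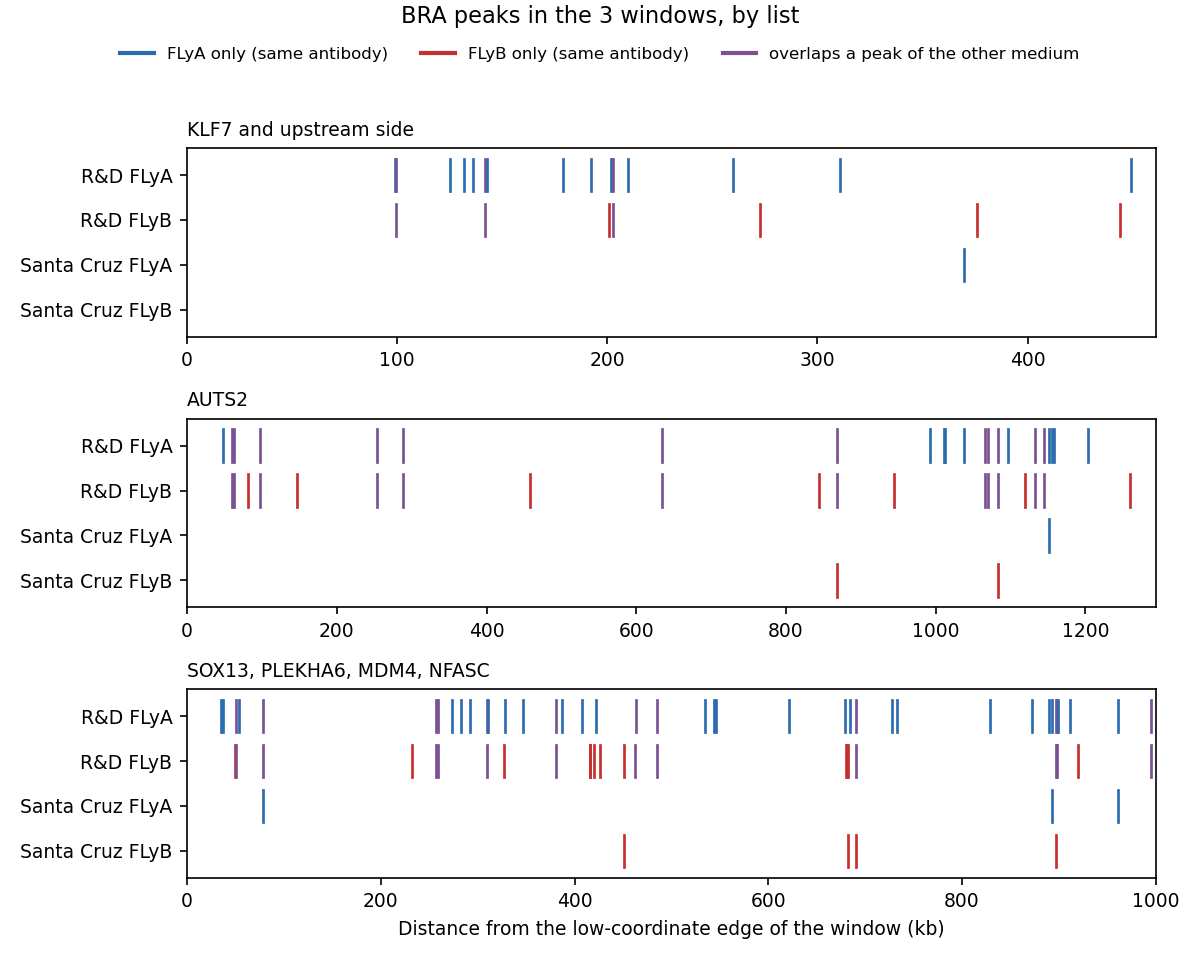
Positions of the 137 BRA peaks in the 3 windows, with 1 row per list, as the distance in kb from the low-coordinate edge of each window. Ticks are coloured by whether the peak overlaps a peak of the same antibody in the other medium, and the FLyA-only ticks of the AUTS2 window gather at its high-coordinate end.

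With the R&D Systems antibody, BRA had more peaks in FLyA than in FLyB in each window. The KLF7 window held 15 FLyA and 7 FLyB peaks, the AUTS2 window 22 and 19, and the SOX13 to NFASC window 39 and 24. FLyA peaks made up 68.2% (45.1 to 86.1%) of R&D Systems peaks at KLF7, 53.7% (37.4 to 69.3%) at AUTS2 and 61.9% (48.8 to 73.9%) at SOX13 to NFASC, and 52.2% over both complete lists. The intervals of all 3 windows hold the value of the complete lists. As the loci were selected on these lists, this is a description and not a test. Medium-only peaks, those overlapping no peak of the other medium by 1 bp or more, numbered 49 in FLyA and 23 in FLyB over the 3 windows. The ratio was 2.13, against 1.14 over the complete lists. FLyA-only peaks were 68.1% (56.0 to 78.6%) of medium-only peaks, beside 53.4% over the complete lists. This excess follows in part from the choice of the loci.

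The share of FLyA peaks that were FLyA-only was not high in these windows. It was 64.5% (52.7 to 75.1%), 49 of 76 peaks, beside 67.0% of all R&D Systems FLyA peaks. At KLF7 it was 80.0% (12 of 15, 51.9 to 95.7%), at SOX13 to NFASC 69.2% (27 of 39, 52.4 to 83.0%) and at AUTS2 45.5% (10 of 22, 24.4 to 67.8%), where FLyA-only peaks were outnumbered by 12 shared ones. The share of FLyB peaks that were FLyB-only was 46.0% (23 of 50, 31.8 to 60.7%), beside 63.9% of all R&D Systems FLyB peaks. It was 57.1% (4 of 7) at KLF7, 36.8% (7 of 19) at AUTS2 and 12 of 24 at SOX13 to NFASC. The choice favoured windows with few FLyB-only peaks, so a low FLyB-only share follows in part from it. The part of peak density in this share was not tested. In the AUTS2 window as a whole, most called FLyA peaks were therefore not FLyA-only. The interval of the AUTS2 share also holds the 67.0% of all R&D Systems FLyA peaks.

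**Figure D2:**
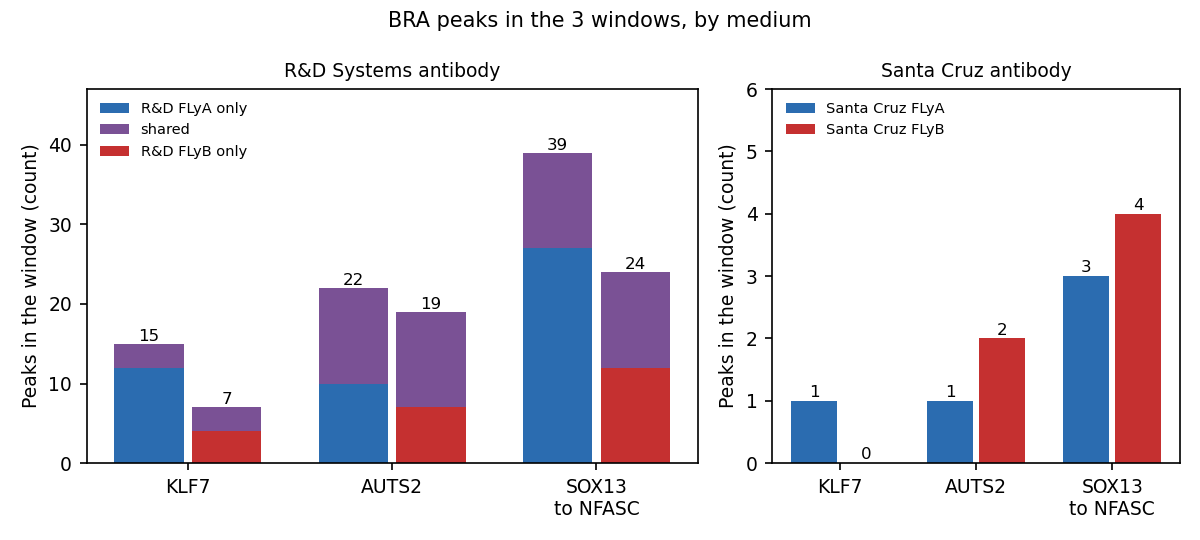
Number of peaks in each window by medium, with R&D Systems peaks divided into medium-only and shared ones (left) and Santa Cruz peaks (right, own scale). R&D Systems FLyA bars are the taller in all 3 windows (15, 22 and 39 against 7, 19 and 24), whereas the Santa Cruz bars run 1, 1 and 3 in FLyA against 0, 2 and 4 in FLyB.

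The density of R&D Systems peaks follows in part from the choice of the loci and is given as a description. FLyA peaks numbered 3.25 per 100 kb at KLF7, 1.7 at AUTS2 and 3.9 at SOX13 to NFASC, and FLyB peaks 1.52, 1.47 and 2.4. Of 2836 windows of 1 Mb with an R&D Systems peak, the median held 8 FLyA and 7 FLyB peaks. The window of SOX13, PLEKHA6, MDM4 and NFASC held the most FLyA peaks of these, 39, and its 24 FLyB peaks were reached by 99 windows, itself included. The 1 Mb window by which KLF7 was selected held 29 FLyA and 9 FLyB peaks, and that of AUTS2 held 28 and 10. At least as many FLyA peaks were held by 18 windows for KLF7 and 23 for AUTS2, and at least as many FLyB peaks by 1104 and 940.

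Much of the excess at KLF7 and AUTS2 lay beyond the windows drawn around these genes. In the 1 Mb window of KLF7, 11 of the 25 FLyA-only peaks lay inside the gene's window, and 14 lay in the 650 kb after it, with 1 FLyB-only peak there. In the 1 Mb window of AUTS2, 9 of the 23 FLyA-only peaks lay inside the gene's window and 14 in the 692 kb after it, where all 14 FLyA peaks were FLyA-only and 3 FLyB-only peaks were called. In the RefSeq gene order, KLF7 is followed by CREB1 and METTL21A and AUTS2 by GALNT17 and CALN1. Over flanks of the same length as each window, FLyA and FLyB peaks numbered 4 and 1 before the KLF7 window and 15 and 3 after it, and 15 and 5 before the AUTS2 window and 20 and 10 after it. The flank after KLF7 lay wholly, and that after AUTS2 in part, inside the 1 Mb windows of the choice. The flanks of the SOX13 to NFASC window differed from the window in direction, with 18 FLyA and 20 FLyB peaks before it and 20 and 23 after it. That window is the 1 Mb window of the choice and its flanks lie outside it, so this difference follows in part from the choice.

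The AUTS2 window extends beyond the 1 Mb window of the choice, of which it holds the first 308 kb, so a higher FLyA-only count in that stretch was part of the choice. The first 986 kb of the AUTS2 window, outside the choice, held 8 FLyA and 12 FLyB peaks, of which 1 was FLyA-only, 5 were FLyB-only and 7 of each list were shared. The last 308 kb held 14 FLyA and 7 FLyB peaks, with 9 FLyA-only and 2 FLyB-only. The FLyA-only peaks at this end fell mainly into 2 runs of 4 without any other R&D Systems peak between them, chr7:70006726-70052064 (45.3 kb) and chr7:70165082-70218296 (53.2 kb). Between these runs lay 5 shared sites, 1 further FLyA-only peak and 1 FLyB-only peak. The FLyB-only peaks were scattered, and the most isolated (chr7:69471349-69471748) lay 169 kb from the nearest FLyA peak.

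In the KLF7 window, 12 of the 15 FLyA peaks lay between chr2:207987637 and chr2:208098804. The 50 kb bin with the most (chr2:207989001-208039000) held 4 FLyA-only peaks, 1 shared site and no FLyB-only peak. Of 10 bins, 5 had more FLyA-only peaks, 1 had more FLyB-only peaks, 2 had equal numbers and 2 had no R&D Systems peak. FLyA-only and shared sites were intermingled here, since the 3 shared sites each had a FLyA-only peak as the nearest neighbour in the FLyA list, 547 bp, 537 bp and 1280 bp away by midpoint. Towards the upstream end the peaks were sparse, with the last FLyA-only peak at chr2:208337934-208338333.

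In the window of SOX13, PLEKHA6, MDM4 and NFASC, FLyA-only peaks were spread along nearly the whole length, from chr1:204034337-204034736 to chr1:204960464-204960863. Of 20 bins of 50 kb, 11 had more FLyA-only and 4 more FLyB-only peaks. The longest FLyA-only run had 6 peaks over 166 kb (chr1:204727855-204893610), and a run of 5 covered 145 kb (chr1:204534730-204679769). Of the 12 FLyB-only peaks, 6 were in 2 close groups of 3 without any other R&D Systems peak between them. The first group lay within 4.37 kb (chr1:204415562-204419926). A further FLyB-only peak lay 6810 bp by midpoint from the last of that group, beyond a FLyA-only peak. The second group lay within 2.48 kb (chr1:204679809-204682287) and began beside a FLyA-only peak, 439 bp away by midpoint. In the AUTS2 window, by contrast, 6 of 26 bins had more FLyA-only and 7 more FLyB-only peaks.

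**Figure D3:**
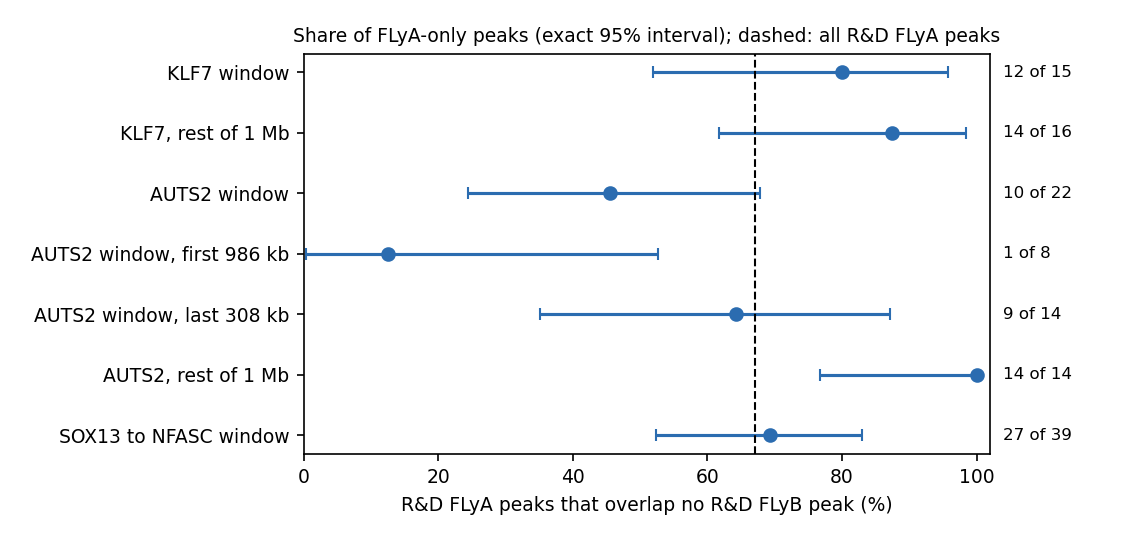
Share of R&D Systems FLyA peaks that overlap no R&D Systems FLyB peak, in each window, in stretches of the AUTS2 window and in the rest of the 1 Mb windows by which KLF7 and AUTS2 were selected. Points are shares with exact 95% intervals, and the dashed line marks 67.0%, the share of all R&D Systems FLyA peaks, with the values running from 1 of 8 in the first 986 kb of the AUTS2 window to 14 of 14 in the rest of its 1 Mb window.

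Distances of medium-only peaks from the other medium differed between the windows. The 49 FLyA-only peaks lay a median of 12.7 kb (range 0.439 to 67.6 kb) from the nearest R&D Systems FLyB peak by midpoint, against 36.6 kb over the complete list. Of them, 20 (40.8%, 27.0 to 55.8%) had a FLyB peak within 10 kb, beside 23.7% of all FLyA-only peaks. These were 7 of 12 at KLF7, 12 of 27 at SOX13 to NFASC and 1 of 10 at AUTS2, where the median distance was 21 kb. The FLyB-only peaks lay a median of 8.85 kb from a FLyA peak, against 23.6 kb over the complete list, and 12 of 23 (52.2%, 30.6 to 73.2%) had one within 10 kb, beside 31.1% of all FLyB-only peaks. The split by window was 10 of 12 at SOX13 to NFASC, 2 of 4 at KLF7 and 0 of 7 at AUTS2. Both distances move with the density of peaks, which is high in windows selected for their counts, and the part of density in them was not tested.

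**Figure D4:**
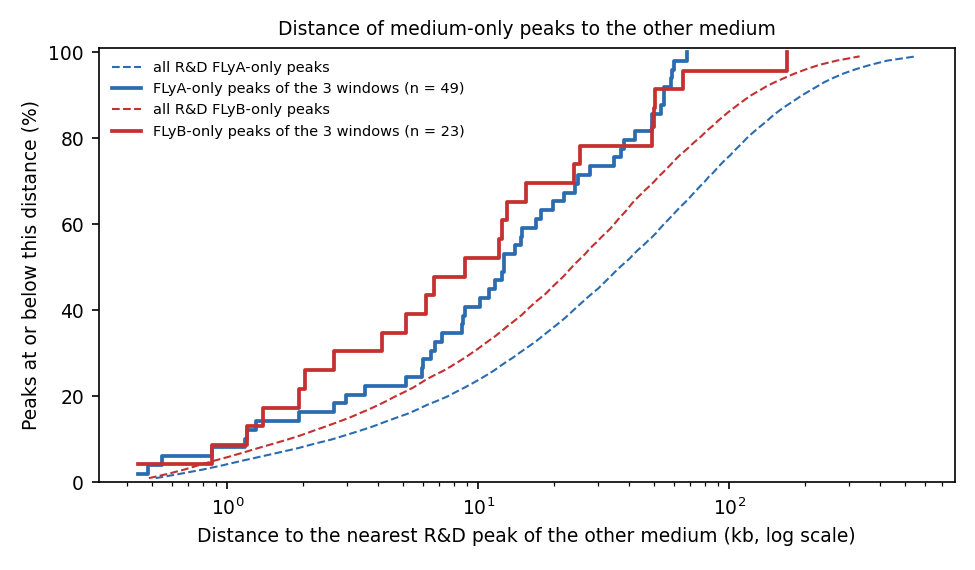
Cumulative share of medium-only R&D Systems peaks by distance from the nearest R&D Systems peak of the other medium, in kb on a log axis. Solid lines are the peaks of the 3 windows (49 FLyA-only, 23 FLyB-only) and dashed lines all medium-only peaks of each list, and the medians are 12.7 and 8.85 kb in the windows against 36.6 and 23.6 kb.

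Peaks of 1 list were also close to each other. Of the 76 FLyA peaks, 19 had another FLyA peak within 2 kb (25.0%, 15.8 to 36.3%), beside 12.8% of the complete list. Of the 50 FLyB peaks, 11 had another FLyB peak within 2 kb (22.0%, 11.5 to 36.0%), beside 17.9%. All 11 of these FLyB peaks were in the SOX13 to NFASC window. Spacing within a list also moves with the density of peaks, which is high in windows selected for their counts. The part of density in these shares was not tested. Shared sites coincided closely, here as over the complete lists. The midpoints of the 27 shared pairs were a median of 41 bp apart (range 2 to 377 bp), against 38 bp over the complete lists. Of these pairs, 15 were within 50 bp, beside 5185 of 8544 shared FLyA peaks over the complete list. The pair farthest apart, at chr7:70146503-70146902 in the AUTS2 window, shared 23 bp and would count as medium-only under a stricter overlap.

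Over the 3 windows, the Santa Cruz antibody did not give more BRA peaks in FLyA than in FLyB. Its lists held 1 FLyA and 0 FLyB peaks at KLF7, 1 and 2 at AUTS2, and 3 and 4 at SOX13 to NFASC. FLyA peaks were 5 of the 11, 45.5% (16.7 to 76.6%), beside 44.8% of all Santa Cruz peaks. The interval, from 11 peaks, also holds the 60.3% found with the R&D Systems antibody, a value that follows in part from the choice of the loci. The difference between the antibodies was not tested. Among 2196 windows of 1 Mb with a Santa Cruz peak, 36.8% had more FLyA than FLyB peaks. Of the 3 windows of the choice, this held for KLF7 (2 against 0) and not for AUTS2 (1 against 1) or SOX13 to NFASC (3 against 4). All 5 FLyA peaks were without a Santa Cruz FLyB peak at the same site, as were 89.9% of that list, and the 6 FLyB peaks were without a FLyA one, as were 91.7%.

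Nearly every Santa Cruz peak in the windows fell on an R&D Systems peak of its own medium. This was so for 4 of 5 in FLyA (80.0%, 28.4 to 99.5%), beside 31.9% of that list, and for 6 of 6 in FLyB (lower bound 54.1%), beside 79.0%. Counted from the other side, 4 of 76 R&D Systems peaks in FLyA (5.26%, 1.45 to 12.9%) lay on a Santa Cruz FLyA peak, beside 3.02% of the list, and 6 of the 50 FLyB peaks (12.0%, 4.53 to 24.3%) on a Santa Cruz FLyB peak, beside 10.0%. Both FLyA counts rest on 4 sites. Counted from either side, the intervals hold the shares of the complete lists. The loci were selected for their R&D Systems FLyA-only peaks, and the part of peak density in these shares was not tested. Which input each list was called against is not given in the sources used here, and a common control for both antibodies was possible.

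Of the FLyA-only R&D Systems peaks, 3 of 49 (6.12%, 1.28 to 16.9%) were met by a Santa Cruz FLyA peak, beside 1.41% of all such peaks, a value within that interval. Of the FLyA peaks at shared sites, 1 of 27 (3.70%, 0.0937 to 19.0%) lay on a Santa Cruz FLyA peak beside 6.29% of the list, and in FLyB 4 of 27 (14.8%) lay on a Santa Cruz FLyB peak beside 14.6%. Of the 3 FLyA-only peaks met by a Santa Cruz FLyA peak, 1 was in the AUTS2 window. There the Santa Cruz peak chr7:70165310-70165709 overlapped the first peak of the second FLyA-only run by 172 bp, with midpoints 228 bp apart. The others were at the high-coordinate end of the SOX13 to NFASC window, at chr1:204893207-204893606 (396 bp of overlap) and chr1:204960478-204960877 (386 bp). The fourth FLyA site found with both antibodies, chr1:204077825-204078224, had the same position in both antibodies' lists and was a shared site, with 339 bp of overlap with an R&D Systems FLyB peak. The remaining Santa Cruz FLyA peak, the only Santa Cruz peak in the KLF7 window (chr2:208258738-208259137), lay 59.4 kb from the nearest R&D Systems FLyA peak and 5.88 kb from the nearest R&D Systems FLyB peak. No FLyA-only peak of the KLF7 window was therefore called with the second antibody.

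Among the Santa Cruz FLyB peaks, 2 lay on FLyB-only R&D Systems peaks, at chr1:204450838-204451237 and in the dense FLyB-only group at chr1:204681848-204682247. These were 2 of 23 FLyB-only peaks (8.70%, 1.07 to 28.0%), beside 7.47% of all such peaks. The other 4 lay on sites that the R&D Systems antibody shared between media: chr7:69882083-69882482 and chr7:70096710-70097109 in the AUTS2 window, and chr1:204690806-204691205 and chr1:204896733-204897132 in the SOX13 to NFASC window. None of the 11 Santa Cruz peaks lay on a medium-only R&D Systems peak of the opposite medium, which over the complete lists held 3.33% of Santa Cruz FLyA and 1.56% of Santa Cruz FLyB peaks. The closest approach of the media with this antibody was 3.53 kb, between the FLyA site at chr1:204893207-204893606 and the FLyB site at chr1:204896733-204897132, and the R&D Systems lists had the same order there, with a FLyA-only peak beside a shared one.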

How the data were processed

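The authors deposited 4 lists of BRA peaks as positions (chromosome, start and end), called with MACS. The submitters' processing notes name Bowtie 0.12.7 and hg19. A threshold of 1e-12 is named in the track lines of the Santa Cruz lists only, so list sizes may not be comparable between antibodies. The lists carry no height, read count or p-value, and 2 input libraries were not analysed here.

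The genes, windows and motif were chosen with earlier results of these data known. The genes named were the 6 of the rule and those that follow KLF7 and AUTS2 in the RefSeq order. Midpoints placed peaks in windows, and an overlap of 1 bp or more counted as shared. Counts used Python 3.11.15, NumPy 2.4.6 and SciPy 1.17.1, overlap counts were checked with bedtools 2.31.1 and tested on simulated data, and figures used matplotlib 3.10.9. No test between media was run, because the loci were selected on the R&D Systems lists and each medium had 1 library per antibody. The antibodies' lists also differ in size and in signal to noise, and intervals cover counting error only. Alternatives covered the overlap, the antibody, the windows and each window left out. The share of peaks with a T-box motif needs sequence of hg19 and was not run. Columns of other samples numbered 0.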

Additional observations from a re-analysis of the deposited data

Results flagged for a closer look

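In 2 windows the R&D Systems lists held more FLyA than FLyB peaks and the Santa Cruz lists fewer. The R&D Systems direction was part of the choice of the loci, and FLyA peaks were 44.8% of all Santa Cruz peaks. At AUTS2, R&D Systems peaks were more numerous in FLyA (22 against 19), whereas FLyA peaks were 33.3% of the Santa Cruz peaks (1 of 3). At SOX13 to NFASC, R&D Systems peaks numbered 39 in FLyA and 24 in FLyB, whereas FLyA peaks were 42.9% of the Santa Cruz peaks (3 of 7). Over all 3 windows the Santa Cruz share was 45.5% (5 of 11), since KLF7 had its only Santa Cruz peak in FLyA. The difference between the antibodies was not tested, and in each case it rests on 1 more Santa Cruz peak in FLyB than in FLyA.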

How the results depend on the processing

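The share of R&D Systems FLyA peaks that were FLyA-only depended on where the windows were drawn. It was 64.5% in the 3 windows and 78.1% in the whole 1 Mb windows of the choice. It was 93.3% (28 of 30) in those 1 Mb windows once the gene windows were taken out, an alternative chosen after seeing the data. These 30 peaks are from KLF7 and AUTS2 only, as the SOX13 to NFASC window fills its 1 Mb window. The 1 Mb windows were selected for their excess of FLyA-only peaks, so high shares in them follow in part from the choice. At AUTS2 it was 45.5% in the gene window and 82.1% in the 1 Mb window. Under the other alternatives (200 bp of overlap, a gap of up to 500 bp, either antibody in the other medium, peaks on a Santa Cruz peak, each window left out) it lay between 59.2 and 75.0%, and the FLyB-only share lay between 42.0 and 52.0% over its alternatives. The 75.0%, from peaks on a Santa Cruz peak, rests on 3 of 4 peaks (19.4 to 99.4%). With 200 bp of overlap the FLyA-only share was 68.4%, beside 69.3% of the complete list under the same rule. With a gap of up to 500 bp it was 59.2%, beside 64.5%. The FLyB-only share was 52.0% beside 66.4% with 200 bp of overlap, and 42.0% beside 60.6% with the gap. A low FLyB-only share follows in part from the choice of the loci. The FLyA share of Santa Cruz peaks lay between 40.0% (4 of 10) and 54.5% (6 of 11). Of Santa Cruz FLyA peaks, 60.0% (3 of 5) to 80.0% (4 of 5) fell on an R&D Systems FLyA peak. These counts are too small to show that the shares are stable. Without the AUTS2 window the FLyA-only share was 72.2%. The cause of these shifts beyond the choice of the loci was not tested. Alternatives for the T-box motif share were not run, as no genome of the build of the lists was used. The lists give no depth and no library was repeated with the same antibody, so variation between experiments is not covered by any interval given here.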

Other observations

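Some values fall in no comparison above. The members' promoters ranged from 42.7 to 82.3% GC, against a median of 58.7% over all RefSeq promoters, and that of AUTS2 was the richest, with 82.3% GC and 55 CpG in 300 bases against a median of 14. Beyond the SOX13 to NFASC window, the next 1000 kb held 4 Santa Cruz FLyA peaks and 1 Santa Cruz FLyB peak, while the R&D Systems lists held 20 FLyA and 23 FLyB peaks there. The flank before that window held 0 Santa Cruz FLyA peaks and 1 FLyB peak. The flanks before and after AUTS2 held 0 and 1, and 1 and 1, and those of KLF7 0 and 0, and 1 and 0. These counts are small, and the difference between the antibodies was not tested.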
